A study of Mus musculus with 6 samples.

Results

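The 10 genes described here encode the inhibitors of cyclin-dependent kinases (CDKs) and the retinoblastoma family of pocket proteins. They were chosen by gene symbol out of the 55487 genes in each count file. Their transcripts were measured in LSK cells sorted from mouse bone marrow. LSK cells lack mature lineage markers and carry the surface proteins c-KIT and SCA1, a gate that covers blood stem cells and early progenitors. The 3 BrmKO mice, with the genotype Brm-/- (Brm is also called Smarca2), were set against 3 wild-type (WT) mice. The strain background of all 6 mice is given as C56Bl/6, and no treatment is named. Their age and sex, the design of the Brm allele and the cells in which it is inactivated are unstated in the labels. The series design counts 3 mice per genotype, and each library is a separate sample. The question was which of these cell cycle brakes, if any, differ in expression when BRM is missing.

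Progress from G1 into S phase depends on cyclin D with CDK4 or CDK6 and on cyclin E or A with CDK2. INK4 inhibitors bind CDK4 and CDK6, whereas Cip/Kip inhibitors act on a wider set of cyclin-CDK complexes. Active CDKs phosphorylate the retinoblastoma proteins, which otherwise bind E2F factors and hold down genes for DNA replication. BRM and its relative BRG1 are ATPases of SWI/SNF chromatin remodelling complexes and have been found with RB1 in repressor complexes. In blood stem cells, several of these inhibitors are known for limiting entry into the cell cycle.

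The labels were first checked at the targeted gene. Smarca2 had 26.9, 26.5 and 27.9 CPM (counts per M reads in genes, with TMM-scaled library sizes) in the BrmKO libraries, against 174, 213 and 150 CPM in the WT libraries. The groups were far apart, and the log2 fold change was -2.72 ± 0.13 (SE, edgeR quasi-likelihood test, adjusted p = 2.97e-05). Smarca4, which encodes BRG1, averaged 331 ± 40.8 CPM in BrmKO and 306 ± 40.4 CPM in WT (SD, n = 3 each, log2 fold change 0.11 ± 0.13, adjusted p = 0.999). Libraries held 29.18 to 33.29 M reads in genes in BrmKO and 28.01 to 36.46 M in WT, a difference of means that was within the spread (exact permutation test, two-sided, p = 0.7, where 3 against 3 can give no p below 0.1). The libraries numbered 3 stood apart, with 9.29% of reads outside genes in BrmKO and 8.41% in WT, against 5.79% to 6.61% in the other 4. All 10 gate and stem cell genes looked at, Kit and Ly6a (SCA1) among them, reached at least 10 reads in a library. That low bar does not identify the cells. All listed stromal and endothelial (12), erythroid (7), B lineage (7), monocyte and macrophage (8) and granulocyte (7) genes also reached it. So did 7 of 8 megakaryocyte and platelet genes and 5 of 6 T and NK cell genes.

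Promoter sequences show where in the genome these genes start and which of them carry a match to the E2F binding sequence. The RefSeq table for GRCm38.p6 held 8 of the 10 genes with 11 start sites, each as 300 bases that run from 250 before the start to 50 after it. The E2F motif was searched as TTTCCCGC, TTTCGCGC, TTTGCCGC or TTTGGCGC on both strands. It was found at 2 of the 11 start sites and in 2.27% of all 32851 promoters in the table. Of the 11, Rbl1 (chr2:157204485-157204784, minus strand) had it 18 bases before the start. The start of the longer Cdkn2a transcript, which encodes p19ARF (chr4:89294570-89294869, minus strand), had it 99 bases before the start. The start of the p16INK4a transcript (chr4:89282143-89282442, minus strand) and Cdkn2b (chr4:89310983-89311282, minus strand) had no match. These 4 are shown because they contrast a steadily expressed gene with a locus that had no reads, and capitals mark the E2F match.
Rbl1: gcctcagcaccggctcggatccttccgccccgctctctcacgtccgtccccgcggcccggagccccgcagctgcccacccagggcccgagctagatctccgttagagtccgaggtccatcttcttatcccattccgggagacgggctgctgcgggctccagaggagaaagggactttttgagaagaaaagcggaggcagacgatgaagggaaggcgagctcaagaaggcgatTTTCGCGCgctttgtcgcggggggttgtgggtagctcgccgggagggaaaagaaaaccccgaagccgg
Cdkn2a, p19ARF start: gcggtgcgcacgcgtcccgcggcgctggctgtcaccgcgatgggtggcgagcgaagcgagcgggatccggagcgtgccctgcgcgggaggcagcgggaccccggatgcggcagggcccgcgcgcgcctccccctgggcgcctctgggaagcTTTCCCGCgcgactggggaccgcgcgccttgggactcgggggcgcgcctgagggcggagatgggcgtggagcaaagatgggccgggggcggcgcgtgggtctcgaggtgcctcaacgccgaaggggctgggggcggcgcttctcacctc
Cdkn2a, p16INK4a start: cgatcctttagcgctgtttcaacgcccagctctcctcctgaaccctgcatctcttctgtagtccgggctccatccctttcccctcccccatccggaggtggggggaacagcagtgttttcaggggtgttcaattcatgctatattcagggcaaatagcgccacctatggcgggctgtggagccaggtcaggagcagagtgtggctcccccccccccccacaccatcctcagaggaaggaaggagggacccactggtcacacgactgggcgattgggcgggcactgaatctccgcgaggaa
Cdkn2b: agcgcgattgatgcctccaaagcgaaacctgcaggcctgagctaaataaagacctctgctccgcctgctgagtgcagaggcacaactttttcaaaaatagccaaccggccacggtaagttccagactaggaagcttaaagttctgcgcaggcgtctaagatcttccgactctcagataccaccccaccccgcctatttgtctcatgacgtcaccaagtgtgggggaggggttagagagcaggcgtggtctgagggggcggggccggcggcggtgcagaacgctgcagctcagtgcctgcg
The upstream start of Cdkn2c (chr4:109666707-109667006, minus strand) is shown because this gene had the smallest p among the 10. It held 4 GC boxes, searched as GGGCGG on both strands and marked here in capitals, which occur in 35.7% of all promoters of the table and at 9 of the 11 start sites.
Cdkn2c, upstream start: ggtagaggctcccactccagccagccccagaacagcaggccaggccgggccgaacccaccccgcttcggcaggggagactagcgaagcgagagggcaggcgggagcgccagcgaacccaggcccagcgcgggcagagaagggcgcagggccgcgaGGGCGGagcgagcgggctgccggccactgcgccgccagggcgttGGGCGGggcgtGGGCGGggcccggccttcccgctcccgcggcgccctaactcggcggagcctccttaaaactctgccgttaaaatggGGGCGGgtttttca
A second annotated start of Cdkn2c (chr4:109665323-109665622, minus strand) held neither motif. The counts are for whole genes and do not separate starts. A motif match is a description of these letters only.

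Levels between genes were compared per kb of exon. That length includes exon bases shared with genes on the other strand, 30.65% in Cdkn1c, 20.97% in Rbl2, 14.9% in Rb1 and 7.68% in Cdkn1a. The remaining members share none. If reads in shared bases were left uncounted, the levels per kb of these genes can be too low in both genotypes. For Rb1, part of the shared bases belongs to a processed transcript and lies outside the exons of the longest transcript. Cdkn2d had the highest level of the 10 in both genotypes, at 30.5 ± 2.17 CPM per kb in BrmKO and 32.8 ± 2.05 in WT (SD, n = 3 each). In BrmKO, Rbl1 at 18.1 ± 0.227, Rbl2 at 16.1 ± 0.703, Cdkn2c at 14.3 ± 1.13 and Cdkn1a at 14.1 ± 4.18 CPM per kb came next. In WT that group was Rbl1 at 18.3 ± 0.797, Cdkn1a at 14.8 ± 8.18, Rbl2 at 14.6 ± 1.19 and Cdkn2c at 10.4 ± 1.71 CPM per kb. Rb1 and Cdkn1b followed in both genotypes, at 4.62 ± 0.311 and 4.29 ± 0.332 CPM per kb in BrmKO and 5.18 ± 0.508 and 4.96 ± 0.376 in WT. Cdkn1c was lowest of those with reads, at 0.961 ± 0.0781 CPM per kb in BrmKO and 0.628 ± 0.173 in WT. Cdkn2a and Cdkn2b had no reads. Neighbours in this order whose libraries overlapped were Rbl2 with Cdkn2c, Cdkn2c with Cdkn1a, and Rb1 with Cdkn1b in BrmKO. In WT they were Rbl1 with Cdkn1a, Cdkn1a with Rbl2, and Rb1 with Cdkn1b. The order depends on the length used: per kb of the longest transcript, Cdkn1a stood at 24.1 in BrmKO and 25.3 in WT, and Rbl2 at 24.7 in BrmKO and 22.5 in WT, both above Rbl1 in BrmKO at 22.3.

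**Figure D1:**
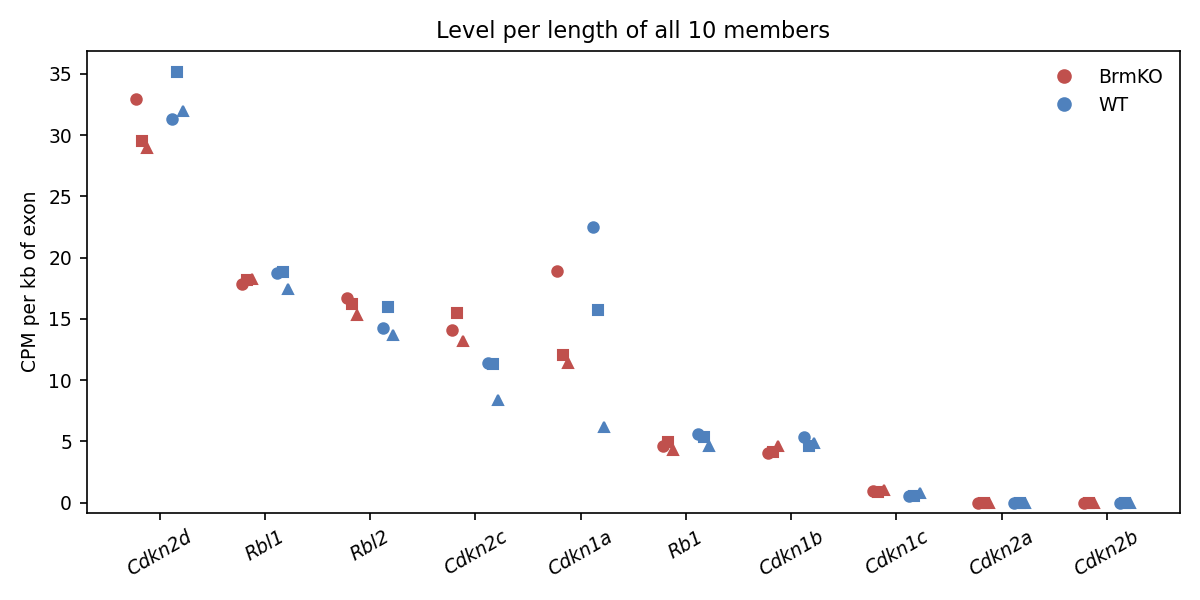
Level per length (CPM per kb of exon) of all 10 genes, with a point per library, BrmKO in red to the left of WT in blue, and marker shapes for replicates 1 (circle), 2 (square) and 3 (triangle). Cdkn2d lies highest in all 6 libraries, the Cdkn1a points of WT spread between 6.21 and 22.5, and Cdkn2a and Cdkn2b lie at 0.

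Of the 10 genes, 8 passed the filter on low counts and were tested, and 0 passed at an adjusted p of 0.05 in edgeR's quasi-likelihood test, as did 0 with DESeq2 and 0 with limma-voom. Across all 15691 tested genes, 0.140% passed, 0.0829% higher and 0.0574% lower in BrmKO. An unadjusted p under 0.05 was found for 1 of the 8, Cdkn2c, higher in BrmKO, against 5.85% of all tested genes (3.14% higher and 2.71% lower). The libraries of the genotypes did not overlap for Cdkn2c and Cdkn1c, both higher in BrmKO, and for 0 of the 8 in the lower direction, against 5.69% of all tested genes that were higher without overlap and 5.37% that were lower. In all, 3 of the 8 lay above 0 in log2 fold change, and the median was -0.05 over the 8 against -0.01 over all tested genes. Without the libraries numbered 3, again 0 of the 8 passed. A search of all annotated transcripts found no near-identical copy of any of the 10 (at least 95% identity over 50% of the longest transcript).

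**Figure D2:**
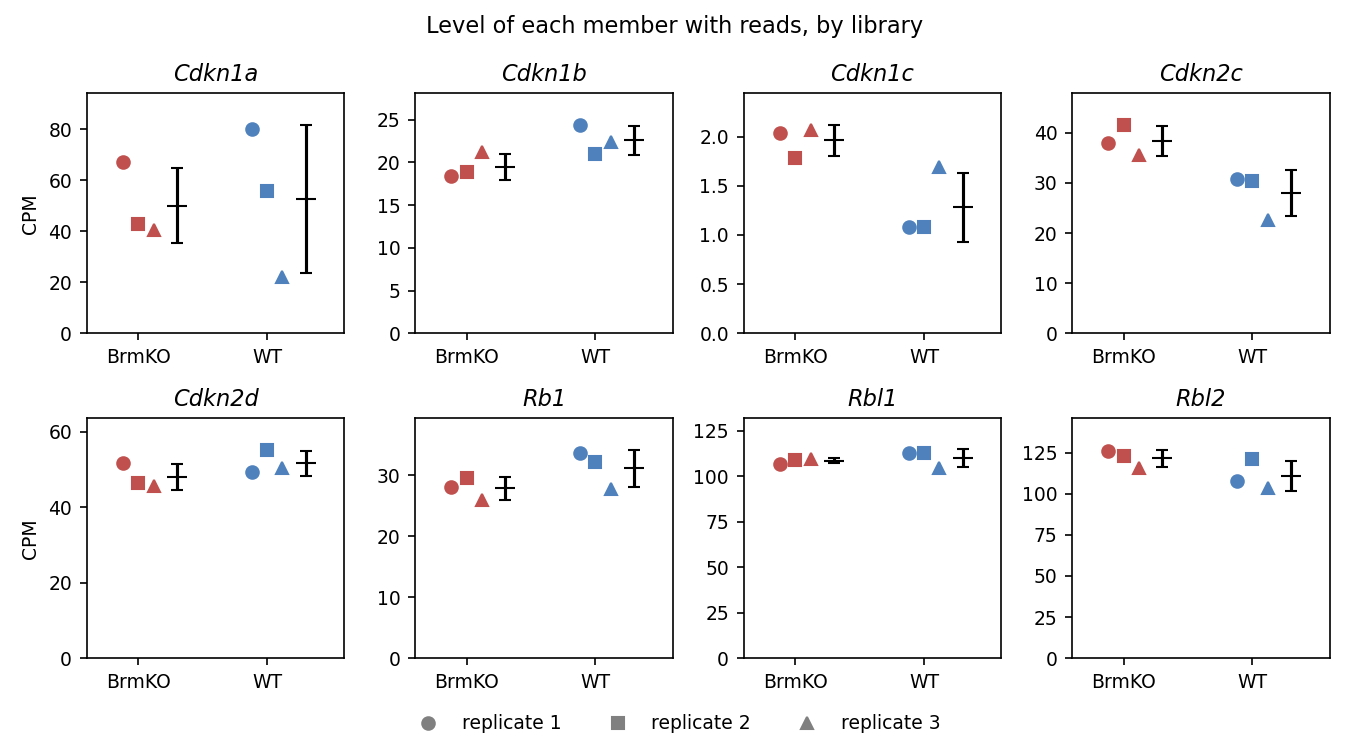
CPM on linear axes that start at 0 for the 8 genes with reads, with a point per library (red, BrmKO; blue, WT; shapes, replicates) and the mean with SD (n = 3) as a black bar. The BrmKO points of Cdkn2c, 35.6 to 41.6 CPM, all lie above the WT points, 22.6 to 30.7 CPM, as do those of Cdkn1c, whereas the other 6 overlap.

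Among the INK4 genes, Cdkn2a and Cdkn2b were silent at this depth in both genotypes. Cdkn2a (ENSMUSG00000044303, chromosome 4, 89274471 to 89294653, minus strand) encodes p16INK4a and, from another first exon, p19ARF, which protects p53 from MDM2. Cdkn2b (ENSMUSG00000073802, chromosome 4, 89306299 to 89311039, minus strand) encodes p15INK4b, a transforming growth factor beta target. Both had 0 reads in each of the 6 libraries, among 190.3 M reads in genes. A count of 0 allows up to 3 reads, that is 0.0872 to 0.105 CPM per library in BrmKO and 0.0828 to 0.105 CPM in WT. The annotated Cdkn2a transcripts, of 852 and 895 bases, share 575 bases, so neither product had reads. Of 21974 protein-coding genes in the files, 5736 (26.1%) likewise had no read. The nearest protein-coding gene below the locus, Mtap, 93.4 kb away, averaged 89.5 ± 3.78 CPM in BrmKO and 97.8 ± 4.71 CPM in WT, without overlap between the genotypes (edgeR, adjusted p = 0.977). On the far side, Dmrta1 had 0, 0 and 8 reads in BrmKO and 0 reads in the 3 WT libraries.

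Cdkn2c (ENSMUSG00000028551, chromosome 4, 109660876 to 109667189, minus strand) encodes p18INK4c, known for restraining the cycling of blood stem cells. It had 37.9, 41.6 and 35.6 CPM in BrmKO, against 30.7, 30.3 and 22.6 CPM in WT. All BrmKO libraries were above all WT libraries, and WT replicate 3 was the lowest. The means were 38.3 ± 3.02 CPM in BrmKO and 27.9 ± 4.58 CPM in WT (SD, n = 3 each). The fold was 1.37, with a 95% interval of 1.10 to 1.71 that is not adjusted for the number of genes (log2 fold change 0.46 ± 0.14). It did not pass over all genes (edgeR, adjusted p = 0.568), and ranked 255 of the 15691 tested genes by p. Without WT replicate 3 the log2 fold change was 0.33, the lowest value among the alternatives, and the adjusted p ranged from 0.2 to 1 over the 12 alternatives.

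Cdkn2d (ENSMUSG00000096472, chromosome 9, 21288410 to 21291407, minus strand) encodes p19INK4d, a relative of p18INK4c that also binds CDK4 and CDK6. It had 51.9, 46.5 and 45.5 CPM in BrmKO, against 49.2, 55.3 and 50.3 CPM in WT, and the genotypes overlapped. Its log2 fold change was -0.11 ± 0.10 (adjusted p = 0.999), and the interval of the fold, 0.794 to 1.09, leaves room for a difference of that size in either direction.

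The Cip/Kip genes showed very different spreads between mice. Cdkn1a (ENSMUSG00000023067, chromosome 17, 29090976 to 29100727, plus strand) encodes p21, a p53 target. It had 67.2, 42.7 and 40.4 CPM in BrmKO, against 79.9, 56.0 and 22.1 CPM in WT. The WT libraries thus held both the highest and the lowest value, a 3.62-fold range, with a coefficient of variation of 55.2% where counting error per library was 1.86% to 3.99%. In BrmKO that coefficient was 29.6%. The log2 fold change was -0.07 ± 0.48 (adjusted p = 0.999), and the 95% interval of the fold ran from 0.418 to 2.16. The direction changed when single libraries were left out, at 0.36 without WT replicate 1 and -0.44 without WT replicate 3. In both genotypes the level fell from replicate 1 to 2 to 3, and the libraries numbered 3 also stood apart in reads outside genes. With the replicate number as a block in the fit, the log2 fold change was 0.06 ± 0.27 (SE). The part of what the libraries numbered 3 share in the Cdkn1a level was not tested. WT replicate 1 also had the highest summed level of 12 stromal and endothelial markers, 416 CPM against 220 and 254 CPM in the other WT libraries, and of 7 B lineage markers, 1365 CPM against 768 and 693. In BrmKO the order was the other way: replicate 3 had the highest of both sums, 294.5 and 695.7 CPM, and the lowest Cdkn1a level. The part of those cells in the Cdkn1a level was not tested. An antisense gene with 13 to 46 reads per library, AC167363.2, covers 7.68% of the exon bases of Cdkn1a.

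Cdkn1b (ENSMUSG00000003031, chromosome 6, 134920401 to 134925513, plus strand) encodes p27, an inhibitor mainly of cyclin E-CDK2 that is abundant in resting cells. It had 18.4, 18.9 and 21.2 CPM in BrmKO, against 24.4, 21.02 and 22.4 CPM in WT. BrmKO replicate 3 overlapped WT replicate 2, and the other BrmKO libraries lay below all WT libraries. The log2 fold change of -0.21 ± 0.13 did not pass (adjusted p = 0.957), with a 95% interval of the fold of 0.706 to 1.06.

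Cdkn1c (ENSMUSG00000037664, chromosome 7, 143458339 to 143461050, minus strand) encodes p57, an imprinted inhibitor enriched in quiescent blood stem cells. It was close to the lower end of what was measured, with 61, 51 and 71 reads in BrmKO against 39, 35 and 48 reads in WT. In CPM these were 2.04, 1.78 and 2.06 in BrmKO, against 1.08, 1.08 and 1.69 in WT, and the genotypes did not overlap. Counting error alone was 11.9% to 16.9% per library. The fold of 1.53 had a 95% interval of 0.886 to 2.65 and did not pass (log2 fold change 0.62 ± 0.35, adjusted p = 0.943). Of its exon bases, 30.6% also belong to an antisense gene, Gm44732, which had 0 reads in all 6 libraries. How reads in such overlaps were assigned depends on the strand setting of the counting, which the labels do not state. The SMART-Seq v4 kit used for the libraries marks no strand. Of the reads, 5.79% to 9.29% lay outside genes and 6.2% to 6.5% were left out as ambiguous. Of the 635 exon bases of Gm44732, 625 lie in exons of Cdkn1c. If reads in shared bases were left uncounted, its 0 reads do not show that antisense reads were absent. The Cdkn1c level would then be too low in both genotypes.

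None of the retinoblastoma genes passed, and the genotypes overlapped for each. Rbl1 (ENSMUSG00000027641, chromosome 2, 157145893 to 157204534, minus strand) encodes p107, a pocket protein made mainly in cycling cells and itself under E2F control. It had 107, 109 and 110 CPM in BrmKO, against 112, 113 and 104 CPM in WT. Its coefficient of variation was 1.25% in BrmKO, below the counting error of 1.63% to 1.79%, and 4.35% in WT. The log2 fold change was -0.02 ± 0.08 (adjusted p = 0.999), and the 95% interval of the fold, 0.873 to 1.116, was the narrowest of the 8.

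Rbl2 (ENSMUSG00000031666, chromosome 8, 91070057 to 91123844, plus strand) encodes p130, which joins E2F4 and the MuvB core in the DREAM repressor of resting cells. It had 126, 123 and 116 CPM in BrmKO, against 108, 121 and 104 CPM in WT. WT replicate 2 lay within the BrmKO range, and the other WT libraries lay below it. The log2 fold change was 0.13 ± 0.09 (adjusted p = 0.981), with a 95% interval of the fold of 0.954 to 1.26. Exons of Aktip and Gm45464 on the other strand cover 9.17% and 11.8% of its exon bases.

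Rb1 (ENSMUSG00000022105, chromosome 14, 73183673 to 73325822, minus strand) encodes the retinoblastoma protein itself. It had 28.02, 29.6 and 25.9 CPM in BrmKO, against 33.6, 32.2 and 27.7 CPM in WT. WT replicate 3 lay among the BrmKO libraries and the other WT libraries above them. The log2 fold change was -0.16 ± 0.12 (adjusted p = 0.999), with a 95% interval of the fold of 0.741 to 1.08. Exons of Rcbtb2 and Lpar6 on the other strand cover 8.11% and 6.78% of its exon bases. Lpar6 is a lysophosphatidic acid receptor gene inside an intron of the longest Rb1 transcript. The 408 bases it shares equal the length of Rb1-206, an annotated processed transcript inside that intron. Lpar6 had 818, 728 and 812 reads in BrmKO and 1190, 969 and 867 reads in WT, not scaled for depth.

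**Figure D3:**
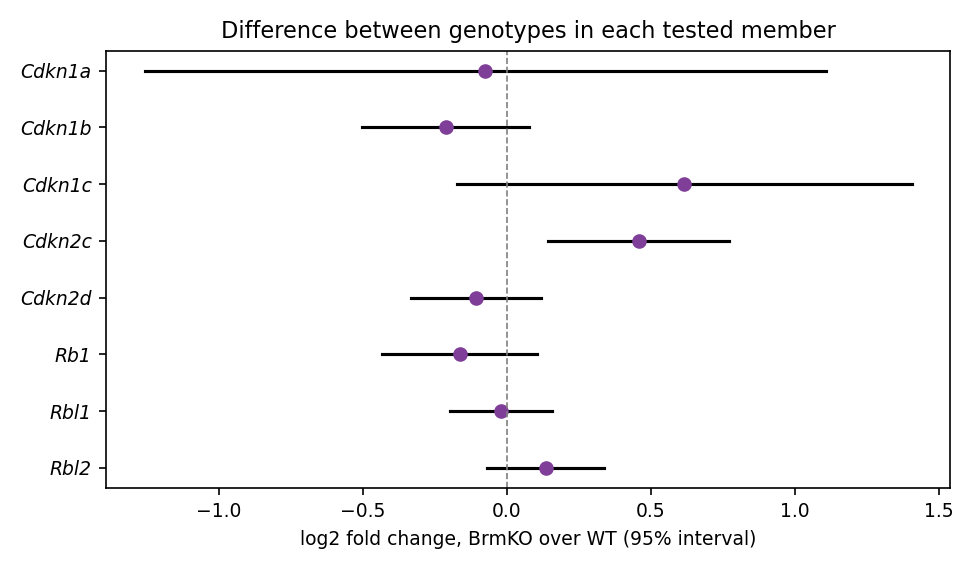
Log2 fold change of BrmKO over WT for the 8 tested genes, with 95% intervals from edgeR that are not adjusted for the number of genes. The interval of Cdkn2c, 0.14 to 0.77, lies to the right of 0, and the other 7 include 0, from the narrow one of Rbl1 to that of Cdkn1a, -1.26 to 1.11.

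Ratios between genes of a library do not depend on how libraries are scaled, and they were looked at after the values were seen, with no test. Per kb, the ratio of Cdkn2c to Cdkn2d was 0.428, 0.524 and 0.458 in BrmKO, against 0.366, 0.322 and 0.263 in WT, so the genotypes did not overlap. Cdkn2c thus made up 31.9% ± 2.24 of the INK4 level in BrmKO and 24.0% ± 2.98 in WT (SD, n = 3 each). The summed INK4 level was 44.7 ± 2.46 CPM per kb in BrmKO and 43.2 ± 3.05 in WT. Within the retinoblastoma family the ratio of Rbl2 to Rb1 was 3.58, 3.30 and 3.56 in BrmKO, against 2.55, 2.99 and 2.97 in WT, again without overlap. Per kb of all exon bases, Rbl1 held the largest share in all 6 libraries, 45.5% to 48.2% in BrmKO and 46.9% to 48.7% in WT, and Rb1 the smallest, 11.3% to 12.5% in BrmKO and 12.9% to 14.5% in WT. Per kb of the longest transcript, Rbl2 instead exceeded Rbl1 in each BrmKO library, at 23.49 to 25.6 against 21.98 to 22.53 CPM per kb. Exon bases shared with other genes, 20.97% in Rbl2 and 0% in Rbl1, also bear on their order, which is therefore not settled. The summed family level was 38.8 ± 0.789 CPM per kb in BrmKO and 38.1 ± 2.24 in WT. In the Cip/Kip group Cdkn1a held 66.7% to 79.0% in BrmKO and 51.9% to 79.3% in WT. The ratio of Cdkn1a to Cdkn1b overlapped between genotypes, at 2.44 to 4.68 in BrmKO and 1.26 to 4.19 in WT. How often ratios of other gene pairs lie without overlap was not computed.

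**Figure D4:**
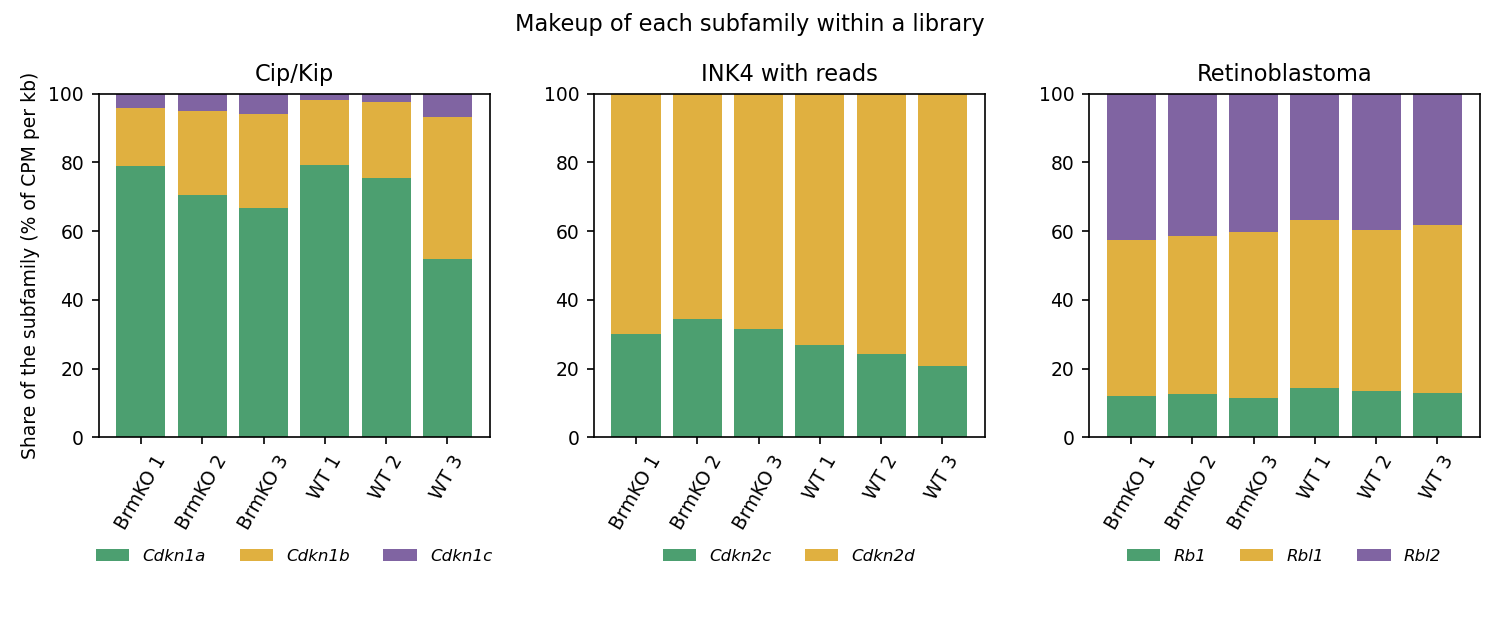
Share of each gene in its subfamily within a library (percent of summed CPM per kb), BrmKO libraries to the left of WT libraries. The Cdkn2c share of the INK4 genes is 29.99% to 34.4% in BrmKO and 20.8% to 26.8% in WT, and the share of Cdkn1a in the Cip/Kip genes is lowest, 51.9%, in WT replicate 3.

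Genes on either side of the brakes were described by 8 lists, 129 genes in all, and all 129 were tested. Over all genes, 0 of them passed in edgeR, against 0.140% of all tested genes. An unadjusted p under 0.05 was found for 6 of the 129, 4 higher and 2 lower, where 5.85% of all tested genes had one (3.14% higher and 2.71% lower). With DESeq2 1 of the 129 passed, where 142 genes passed in all, and with limma-voom 0. Of the 12 G1 cyclins and CDKs, 0 passed in either direction, and the median log2 fold change was -0.002. Ccne1, which encodes cyclin E1, averaged 40.7 ± 3.70 CPM in BrmKO and 35.1 ± 3.88 in WT, a log2 fold change of 0.21 ± 0.12. Cdk2 and Cdk6, kinases of the G1 to S step, had 0.10 ± 0.08 and -0.07 ± 0.09. Of the 10 E2F and DP factors, 0 passed (median 0.06), with E2f2 at 0.21 ± 0.18, E2f5 at -0.21 ± 0.19 and Tfdp2 at 0.11 ± 0.11. Of the 9 genes of the DREAM and MuvB complexes, 0 passed (median 0.15). Foxm1, a mitotic activator that takes the place of DREAM, had 0.19 ± 0.10, Lin37, a subunit of the MuvB core, 0.18 ± 0.10 and Dyrk1a, a kinase that promotes DREAM assembly, 0.15 ± 0.11.

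Genes that the pocket proteins are known to restrain were given by lists of E2F target and mitotic genes. Of 30 E2F target genes, 0 passed, 25 had a log2 fold change above 0 and the median was 0.06, where 48.8% of all tested genes lay above 0 with a median of -0.01. Cdc6, a loader of the replicative helicase, averaged 154 ± 5.82 CPM in BrmKO and 136 ± 3.18 in WT (log2 fold change 0.18 ± 0.08, adjusted p = 0.841). Rrm2, a subunit of ribonucleotide reductase, had a log2 fold change of 0.16 ± 0.08. Of 20 mitotic genes of the kind that carry CHR promoter elements, 0 passed, 16 lay above 0 and the median was 0.11. Plk1 and Kif20a, a kinase and a kinesin of mitosis, had 0.31 ± 0.13 and 0.27 ± 0.11, and Cdc25c, a phosphatase that activates CDK1, 0.25 ± 0.11. Genes of these lists share regulation, so the counts are not of independent cases.

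The largest log2 fold change among the 129 genes was that of Klf4, a regulator on the Cip/Kip list. Klf4, a transcription factor that can activate Cdkn1a, had 38.88, 40 and 20.97 CPM in BrmKO, against 10.5, 17.5 and 9.11 CPM in WT. The genotypes did not overlap, and BrmKO replicate 3 lay nearest to WT. The fold of 2.69 did not pass in edgeR (log2 fold change 1.43 ± 0.30, adjusted p = 0.194), while with DESeq2 it did (adjusted p = 6.02e-05, against a range of 6.02e-05 to 0.765 over the 12 alternatives). Mdm4, a partner of MDM2 that restrains p53, had a log2 fold change of -0.28 ± 0.10, and Gfi1, a repressor of stem cell cycling, 0.23 ± 0.10. Of these 19 Cip/Kip regulators, 0 passed (median 0.03). Of 21 regulators of the INK4-ARF locus, largely Polycomb genes, 0 passed (median 0.02). Pcgf2, a Polycomb ring finger protein, had a log2 fold change of 0.81 ± 0.32 at 3.03 ± 0.503 CPM in BrmKO and 1.73 ± 0.412 in WT, Ets1 had 0.27 ± 0.14 and Kdm2b 0.14 ± 0.10. Of 13 corepressors and partners of RB1, 0 passed (median 0.03), with Cbx5, which encodes heterochromatin protein 1 alpha, at -0.23 ± 0.09, Kmt5b at -0.18 ± 0.13 and Hdac2 at -0.06 ± 0.10.

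**Figure D5:**
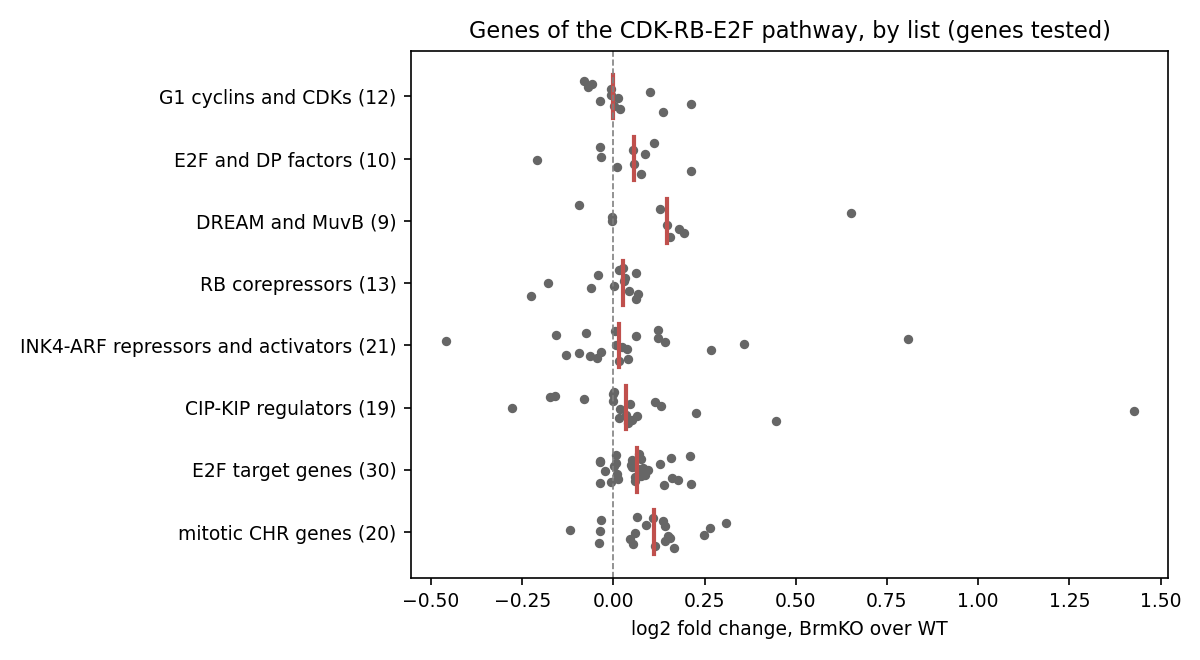
Log2 fold change of BrmKO over WT for each gene of the 8 lists (grey points, with the vertical offset only for legibility) and the median of each list (red line); some genes stand in several lists. The outlying point at 1.43 is Klf4, and the list medians lie between -0.002 and 0.15.

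The genes most like Cdkn2c, Cdkn1c and Cdkn1a over the 6 libraries were looked up by Pearson's r of log2 CPM. For Cdkn2c these were Got1 (r = 0.982) and Luc7l2 (0.980), for Cdkn1c Dkkl1 (0.993), Adgrl4 (0.989) and Matn2 (0.988), and for Cdkn1a Proser1 (0.995), Trp53inp2 (0.988) and Rsph3b (0.988). An r above 0.9 was found for 100 of 10096 compared genes with Cdkn2c, for 98 of 10097 with Cdkn1c and for 180 of 10096 with Cdkn1a. With 6 libraries and so many genes, high r also arises by chance, and how often it would do so was not computed. These values are a description of the 6 libraries.

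Markers of other cell types, some of which progenitors can also express, had reads in the libraries. Summed over 8 megakaryocyte and platelet markers the level was 446 to 617 CPM in BrmKO and 673 to 898 CPM in WT, without overlap, and 1 of them, Pf4, a platelet chemokine, passed over all genes. The 10 gate and stem cell genes summed to 2752 to 2849 CPM in BrmKO and 2509 to 2700 CPM in WT, also without overlap. Taken singly, 11.1% of all tested genes did not overlap. Of these 10, 0 passed over all genes, 1 had an unadjusted p under 0.05 in edgeR and 3 lay below 0 in log2 fold change. The 12 stromal and endothelial markers summed to 193 to 294 CPM in BrmKO and 220 to 416 CPM in WT, and Pdgfra among them had 0 reads in BrmKO. Though these sums overlapped, 9 of the 12 lay below 0 in log2 fold change. The 7 B lineage markers summed to 620 to 696 CPM in BrmKO and 693 to 1365 CPM in WT. An unadjusted p under 0.05 in edgeR was found for 6 of the 12 stromal and endothelial markers, against 5.85% of all tested genes. It was found for 4 of 7 tested megakaryocyte and platelet markers and 2 of 6 tested B lineage markers. For the other lists it was 0 of 7 erythroid, 0 of 4 tested T and NK cell, 1 of 8 monocyte and macrophage and 0 of 7 granulocyte markers. Erythroid markers (7) summed to 465 to 780 CPM in BrmKO and 513 to 848 CPM in WT, T and NK cell markers (6, with Cd3e at 0 in all libraries) to 230 to 238 CPM in BrmKO and 227 to 260 CPM in WT. Monocyte and macrophage markers (8) summed to 435 to 500 CPM in BrmKO and 478 to 594 CPM in WT, and granulocyte genes (7) to 3781 to 4956 CPM in BrmKO and 3960 to 4472 CPM in WT. The part of these cells in the Cdkn2c and Cdkn1c levels was not tested. In sorted bulk samples, fewer cells of a type and less RNA per cell cannot be told apart.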

How the data were processed

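RNA of sorted LSK cells was made into SMART-Seq v4 libraries, per the labels' protocols. The deposited files hold counts of reads per gene. The submitters' processing notes name bcl2fastq, FastQC, STAR, HTSeq, DESeq2 and GRCm38; versions and strand setting are unstated there. The kit marks neither strand nor molecules, so floors and counting errors cover counting only.

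Rows naming no gene (5.79% to 9.29% of reads outside genes, 6.24% to 6.47% ambiguous, 4.38% to 5.27% not unique, 1.99% to 2.48% not aligned) were left out. Of 55487 genes, 55227 matched GENCODE M21 by ID. edgeR 4.0.16 (R 4.3.3; TMM, filterByExpr, robust quasi-likelihood fit, Benjamini-Hochberg over all tested genes, threshold 0.05) was the main test, with no covariate; its p-values and adjusted p-values are those printed. It was tested on simulated data. DESeq2 1.42.0, limma 3.58.1 (voom), no filter, a replicate block, leaving out each library and another gene length were alternatives. Copies were sought with blastn 2.17.0. Members and lists were chosen with earlier results of these data known. The text names all 10 members, Smarca2 and Smarca4, up to 3 genes of smallest p per list, and for Cdkn2c, Cdkn1c and Cdkn1a the 3 genes (mean of at least 5 CPM) of highest r, of which 1 is not reported here; other names, such as single markers and neighbouring genes, were chosen after their values were seen.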

Additional observations from a re-analysis of the deposited data

How the results depend on the processing

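Of the 10 genes, 0 passed under every alternative run. Of 96 recomputed fold changes of the 8 tested genes, 90 kept direction and side of the threshold and 6 reversed, 5 of them for Cdkn1a. Cdkn1a stood at 0.0352 with limma-voom, 0.0611 with a replicate block and -0.44 to 0.36 when single libraries were left out, and Rbl1 at -0.0559 to 0.0017. Among genes of like pattern, leaving out single libraries gave Proser1 -0.0835 to 0.12, Trp53inp2 -0.51 to 0.24 and Rsph3b -0.11 to 0.10, and leaving out both libraries numbered 3, an alternative chosen after seeing the data, gave Proser1 -0.0561 and Rsph3b -0.0602. Over all genes, 22 passed, against 142 with DESeq2, 58 without the filter, 25 with the replicate block, 18 without both libraries numbered 3, and 6 (without WT replicate 2) to 36 (without WT replicate 3). Of the pathway genes, 0 passed, against 1 with DESeq2 and 1 with the replicate block, Klf4 in each case.

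Same-numbered libraries deviated together with r of 0.0518, 0.00775 and 0.194, so the numbers were not taken to pair mice, and BrmKO replicate 1 correlated best with WT replicate 2 (r = 0.168). The libraries numbered 3 were still closer to each other, at a chi-square per degree of freedom of 20.54, than to their own genotype. WT replicate 3 had 44.55 and 48.73 with the other WT libraries, and BrmKO replicate 3 had 35.41 and 32.02 with the other BrmKO libraries. With the replicate block, 1448 genes had an unadjusted p under 0.05 in edgeR, against 918 without it. What the libraries numbered 3 share was not tested. Per kb of the longest transcript in place of all exon bases, levels were 24.09 in BrmKO and 25.31 in WT for Cdkn1a, 15.52 in BrmKO for Cdkn2c, 33.69 in BrmKO and 36.27 in WT for Cdkn2d, 5.974 in BrmKO and 6.688 in WT for Rb1, 22.29 in BrmKO and 22.59 in WT for Rbl1, and 24.67 in BrmKO and 22.46 in WT for Rbl2. Apart from this change of length, the cause of the differences was not tested. Depth limits Cdkn1c, at 35 to 71 reads, and Cdkn2a and Cdkn2b, at 0.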
